A study of Homo sapiens with 12 samples.

Results

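The genes described here are complement component C3 and 7 genes that act beside it or hold it in check: CFB, C1R, C1S, CFI, CD46, CD55 and CD59. A gene was read from a probe set whose annotation names that gene alone, and 7 of the 8 genes had such a probe set, out of 20572 genes tested in all. C1R has no value, because its probe set also names C1RL. Each of the 7 genes had 1 such probe set, and all 7 passed the filter on low values on every array. The cells were MDA-MB-231, an established human triple-negative breast cancer line derived from a pleural effusion, and total RNA was measured on 12 Affymetrix whole-transcript arrays. The 4 groups of 3 arrays were cells given 40 ng/ml TNFα together with 40 µM apigenin, cells given 40 µM apigenin alone, cells given 40 ng/ml TNFα alone, and untreated control cells. Treatment lasted 24 h, the agents were made up in HBSS, and the labels do not say whether control cells received HBSS or any solvent. TNFα is an inflammatory cytokine and apigenin is a plant flavone, and the design asks how TNFα, apigenin and their combination change the transcriptome of this line.

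Complement is a cascade of blood and cell-surface proteins that tags targets and can lyse them. Its classical, lectin and alternative pathways meet at C3, whose cleavage gives the surface tag C3b and the inflammatory fragment C3a. C1r and C1s are the proteases of the classical pathway's first complex, and factor B (CFB) joins C3b to form the alternative pathway's C3-cleaving enzyme. Factor I (CFI) cuts C3b into inactive forms with CD46 as a membrane cofactor, CD55 speeds the decay of the C3-cleaving enzymes, and CD59 blocks the final membrane attack complex. Liver makes most circulating C3 and factor B, and inflammatory cytokines are known to induce both genes in many other cell types. CD46, CD55 and CD59 protect host cells, and tumour cells commonly carry them.

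Of the 8 genes, 6 had an entry in the RefSeq promoter table of build GRCh38.p14: CFB, C1R, CFI, CD46, CD55 and CD59. C3 and C1S had none. The promoters of CFB, which passed the test in 1 comparison, and of CD55, the membrane regulator with the largest difference, are printed as the 250 bases before the start of the gene, 5′ to 3′ on the plus strand. CFB lies at chr6:31945845-31946094 and CD55 at chr1:207321428-207321677. Capitals mark matches to the motifs searched.
CFB: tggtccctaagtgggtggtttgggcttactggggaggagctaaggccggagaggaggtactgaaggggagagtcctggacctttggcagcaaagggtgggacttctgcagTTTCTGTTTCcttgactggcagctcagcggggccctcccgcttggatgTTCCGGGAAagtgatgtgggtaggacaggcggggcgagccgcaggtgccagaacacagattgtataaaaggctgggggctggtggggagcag
CD55: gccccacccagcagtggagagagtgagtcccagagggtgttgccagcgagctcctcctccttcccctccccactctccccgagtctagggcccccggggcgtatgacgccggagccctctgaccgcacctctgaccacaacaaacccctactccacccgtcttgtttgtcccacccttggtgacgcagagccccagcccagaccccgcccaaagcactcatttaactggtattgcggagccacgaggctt
Both strands were searched for the NF-κB consensus, for an interferon-response pattern (GAAA, any 2 bases, GAAA), for the STAT pattern TTCNNNGAA and for the C/EBP pattern TTGCNNAA. In CFB, TTTCTGTTTC matched the interferon-response pattern on the reverse strand at positions -140 to -131 from the start, and TTCCGGGAA matched TTCNNNGAA at -92 to -84. The 2 matches did not overlap. The NF-κB consensus was found in no window of the 6 genes with an entry, CFB included. The CD55 window held none of the 4 patterns, and neither did the windows of CD46 and CFI. TTCNNNGAA was also found at 2 of the 4 starts listed for CD59 and at 1 of the 2 for C1R. For CD59 this was 1 site read in 2 overlapping windows. TTGCNNAA was found at 1 of the 4 starts for CD59 and at both for C1R. Over all 35116 promoter windows of this length, 5.21% held the NF-κB consensus, 3.02% held the interferon-response pattern, 6.57% held TTCNNNGAA and 9.05% held TTGCNNAA. A match describes these letters only.

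The deposited values were log2 expression values from 0.536 to 12.495, with array medians of 2.091 to 2.159. Between arrays of 1 group the correlation over genes was 0.983 to 0.991. The first principal component held 38.3% of the variance and the second 18.8%, and the array numbered 3 was the lowest of its group on the second component in each of the 4 groups. The 8 genes chosen as high in MDA-MB-231 had array medians of 7.87 to 7.90 with TNFα plus apigenin, 7.83 to 7.84 with apigenin, 8.41 to 8.50 with TNFα and 8.03 to 8.19 in control cells. The array medians of the 11 measured luminal markers were 2.06 to 2.34 with TNFα plus apigenin, 2.14 to 2.90 with apigenin, 2.12 to 2.44 with TNFα and 2.22 to 2.52 in control cells. Of these 11, 6 had a mean under 3 over the 12 arrays, so the list was not low throughout. KRT19, a luminal keratin named after its values were seen, was 4.64, 4.55 and 4.38 with TNFα plus apigenin, 4.86, 5.08 and 4.44 with apigenin, 5.44, 5.59 and 5.13 with TNFα, and 5.97, 5.50 and 5.77 in control cells. It was called lower in the combination than with TNFα (-0.86, limma adjusted p = 0.00738), as was EGFR of the 8 high genes (-1.02, limma adjusted p = 0.000194). Both were also called lower with apigenin than in control cells whichever 1 array was left out (KRT19 -1.09 to -0.77, EGFR -0.93 to -0.77). Of the 8 high genes, 2 were called lower in each of these comparisons, and of the 11 luminal markers 1 and 2. Of all genes, 10.1% and 11.4% were called, in either direction. The part of these markers in the results below was not tested. An alternative chosen after seeing the data left out the arrays numbered 3 in all groups.

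C3 was high only on the 3 arrays given TNFα without apigenin. Its level was 2.47, 2.50 and 2.62 with TNFα plus apigenin, 2.45, 2.44 and 2.62 with apigenin, 4.64, 4.46 and 4.95 with TNFα, and 2.22, 2.54 and 2.36 in control cells, all on the log2 scale. Each TNFα array lay above all 9 others, and the ranges of the other 3 groups overlapped. Those 9 arrays lay at 2.22 to 2.62, near the array medians of 2.091 to 2.159, where a fold change understates a change in RNA. The differences of C3 that follow were known when the genes were chosen, so they are a description with no test. TNFα minus control was 2.31 (SE 0.14, 95% interval 2.02 to 2.61), a 4.97-fold higher mean with TNFα. The value of TNFα plus apigenin minus TNFα was -2.16 (SE 0.14, interval -2.46 to -1.86), a 4.46-fold lower mean in the combination. The TNFα response measured with apigenin minus that without it was -2.29 (SE 0.20, interval -2.71 to -1.87). In RNA of whole cultures, fewer cells making a transcript and less of it per cell cannot be told apart.

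The other differences of C3 are sums of those above, so they are a description as well. Between TNFα plus apigenin and apigenin the difference was 0.03 (interval -0.27 to 0.32). Against control, the combination differed by 0.16 (interval -0.14 to 0.45). Apigenin alone differed from control by 0.13 (interval -0.17 to 0.43). The C3 mean was 2.53 ± 0.08 with TNFα plus apigenin, 2.50 ± 0.10 with apigenin and 2.37 ± 0.16 in control cells (SD, n = 3 each), and 4.69 ± 0.25 with TNFα.

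**Figure D1:**
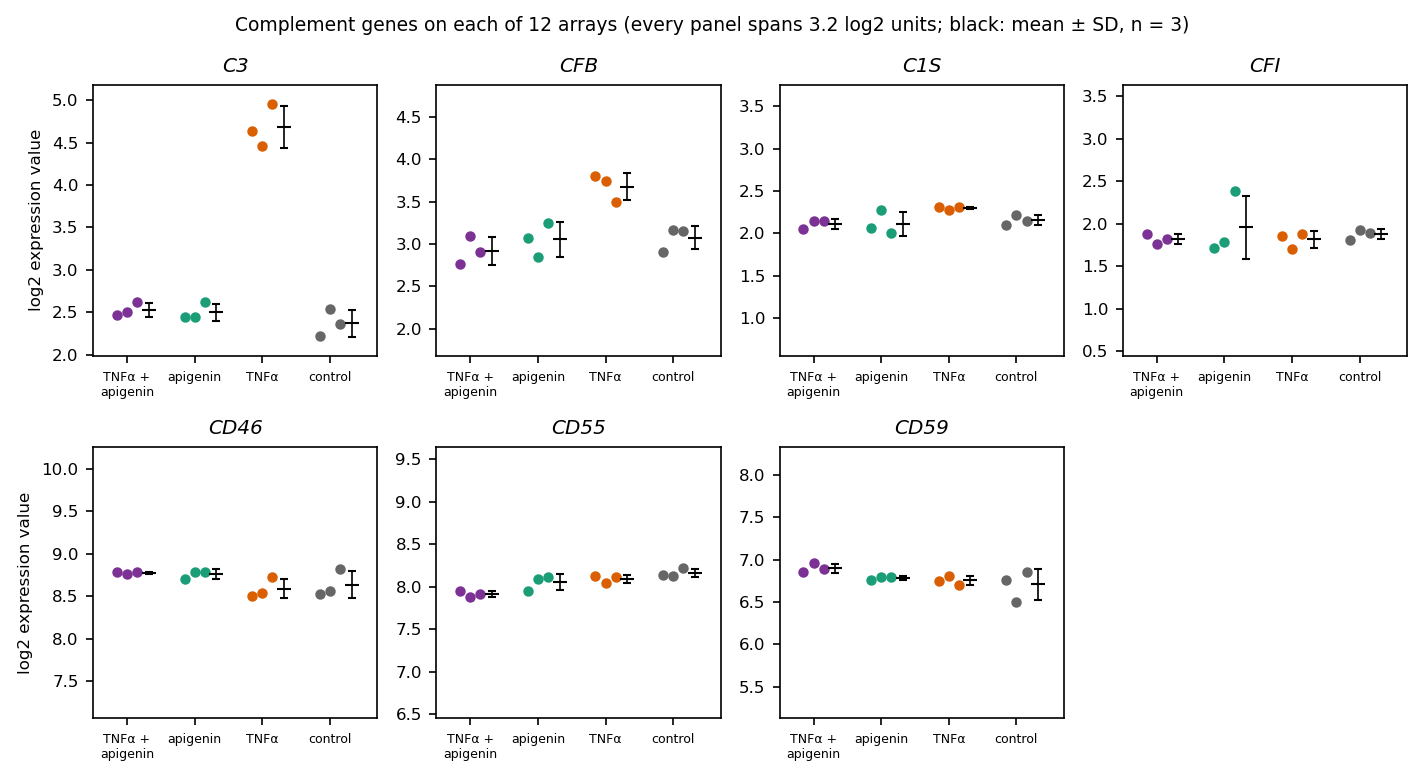
Log2 expression value (y axis) of each of the 7 measured complement genes on each of the 12 arrays, by group (x axis). Points are arrays, and the black bars are the mean ± SD of 3 arrays. The 3 TNFα arrays of C3 sit between 4.46 and 4.95 and all its other arrays between 2.22 and 2.62, while CD46, CD55 and CD59 stay within narrow bands.

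The 6 genes other than C3 were tested with limma, a linear model fitted to all genes, and a gene passed the test, or was called, at an adjusted p below 0.05. CFB was the gene of the 6 that passed it. Its level was 2.76, 3.09 and 2.91 with TNFα plus apigenin, 3.07, 2.85 and 3.25 with apigenin, 3.80, 3.74 and 3.49 with TNFα, and 2.91, 3.16 and 3.15 in control cells. The TNFα arrays lay above all 9 others, and the other 3 groups overlapped. CFB was lower with TNFα plus apigenin than with TNFα, with a difference of -0.76 (SE 0.14, interval -1.07 to -0.45), a 1.69-fold lower mean, with a limma adjusted p of 0.00409. That call held when any 1 of the 6 arrays compared was left out (-0.85 to -0.68, limma adjusted p 0.00539 to 0.0266). In this comparison 10.1% of all genes were called, 5.92% lower, and CFB was the 1 called of the 6.

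TNFα against control gave CFB a difference of 0.60 (SE 0.14, interval 0.30 to 0.91), a 1.52-fold higher mean that did not pass the test over all genes (limma adjusted p = 0.069). Among the alternatives it passed only in a model that adds the replicate number (a replicate block), as given in the section on processing. In the main fit of this comparison limma called none of the 6 genes other than C3, against 0.997% of all genes. CFB was the 1 of the 6 with an unadjusted p below 0.05. The groups did not overlap for CFB and C1S, which were higher with TNFα, and for CD55, which was lower, where 8.42% of all genes had TNFα arrays wholly above and 5.22% wholly below the control arrays. For CFB, TNFα plus apigenin minus apigenin was -0.14 (interval -0.45 to 0.17, limma adjusted p = 0.907), and TNFα plus apigenin minus control was -0.16 (interval -0.46 to 0.15, limma adjusted p = 0.594). Apigenin against control gave -0.02 (interval -0.32 to 0.29, limma adjusted p = 0.965). The CFB response to TNFα with apigenin minus that without it was -0.74 (SE 0.20, interval -1.18 to -0.31, limma adjusted p = 0.881), in a comparison that called 0.0535% of all genes and, with limma, none of the 6 other than C3 (CFB alone was below 0.05 unadjusted). Over the 12 arrays, C3 and CFB correlated at r = 0.869. Over the 9 arrays without TNFα alone it was 0.277, so the description rests on the TNFα arrays, and the arrays share RNA source and normalisation.

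C1S and CFI, the other proteases, had low levels with small differences between groups. C1S was 2.05, 2.15 and 2.15 with TNFα plus apigenin, 2.06, 2.28 and 2.0 with apigenin, 2.31, 2.28 and 2.31 with TNFα, and 2.10, 2.22 and 2.15 in control cells. The TNFα arrays stood above the combination and control arrays, by a small margin. For C1S, TNFα plus apigenin minus TNFα was -0.19 (interval -0.42 to 0.05, limma adjusted p = 0.367), and TNFα minus control was 0.14 (interval -0.09 to 0.38, limma adjusted p = 0.705). CFI was 1.88, 1.76 and 1.82 with TNFα plus apigenin, 1.71, 1.78 and 2.38 with apigenin, 1.85, 1.70 and 1.88 with TNFα, and 1.81, 1.93 and 1.89 in control cells. One apigenin array of CFI stood apart at 2.38, and all 4 groups overlapped. Apigenin minus control was 0.08 for CFI, and -0.13 without that array, and neither value passed the test. Both genes lay near the low end of the scale, where a fold change understates a change in RNA.

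The membrane regulators CD46, CD55 and CD59 were detected in every group and differed little between groups. CD46 was 8.78, 8.76 and 8.79 with TNFα plus apigenin, 8.70, 8.79 and 8.79 with apigenin, 8.50, 8.54 and 8.72 with TNFα, and 8.53, 8.56 and 8.82 in control cells. Neighbouring groups in its order, TNFα plus apigenin, apigenin, control and TNFα, overlapped. CD55 was 7.95, 7.88 and 7.91 with TNFα plus apigenin, 7.95, 8.09 and 8.12 with apigenin, 8.13, 8.04 and 8.11 with TNFα, and 8.14, 8.13 and 8.22 in control cells. The combination arrays of CD55 lay below the TNFα and control arrays and below the apigenin arrays, as did 14.6%, 12.9% and 3.77% of all genes. Values of CD55 printed alike in 2 groups, 7.95 and 8.13, differ in the third decimal. For CD55, TNFα plus apigenin minus control was -0.25 (SE 0.10, interval -0.47 to -0.03, limma adjusted p = 0.145), which did not pass the test. After quantile normalisation the difference was -0.38 with an adjusted p of 0.014. CD59 was 6.85, 6.96 and 6.89 with TNFα plus apigenin, 6.76, 6.80 and 6.79 with apigenin, 6.75, 6.81 and 6.70 with TNFα, and 6.76, 6.50 and 6.86 in control cells. Its combination arrays lay above the TNFα and apigenin arrays, as did 11.6% and 10.4% of all genes, and overlapped the control arrays. The difference between TNFα plus apigenin and control was 0.19 (interval -0.06 to 0.44, limma adjusted p = 0.355).

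The 5 genes C1S, CFI, CD46, CD55 and CD59 gave 30 differences over the 6 comparisons, and limma called 0 of them at an adjusted p below 0.05. The lowest unadjusted p was 0.029, the CD55 value, and the largest difference was 0.25 in size. Their intervals ran from -0.54 to 0.44 over the 6 comparisons. Apigenin against control called 0 of the 6 genes other than C3 and none had an unadjusted p below 0.05, against 11.4% of all genes called. TNFα plus apigenin against apigenin called 0 of the 6, again with none below 0.05 unadjusted, against 0.209% of all genes. TNFα plus apigenin against control called 0 of the 6, with CD55 below 0.05 unadjusted, against 12.5% of all genes.

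The median difference of the 7 genes was 0.05 for TNFα against control, where all genes had a median of 0.02. It was -0.18 for TNFα plus apigenin against TNFα, where all genes had -0.01. Both medians include C3, whose differences were known when the genes were chosen. In that comparison CFB, C1S and CD55 had combination arrays wholly below the TNFα arrays. CD46 and CD59 had them wholly above, where 14.6% and 11.6% of all genes lay wholly below and wholly above. C3 also lay wholly below, as part of its description.

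**Figure D2:**
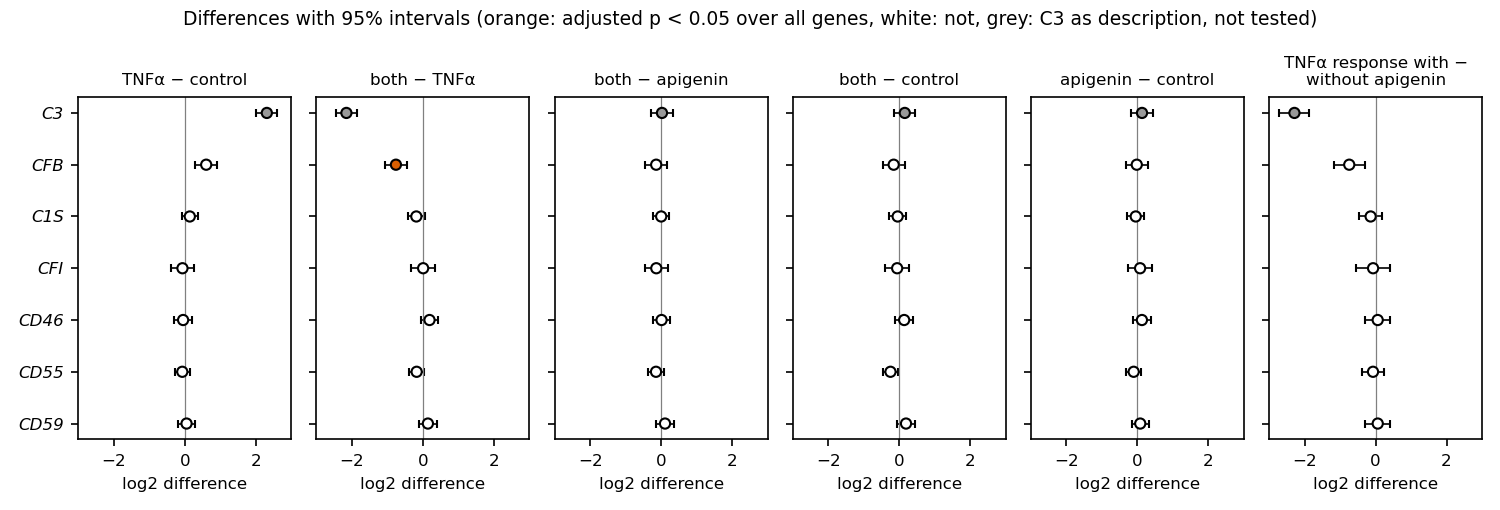
Log2 difference (x axis) of each of the 7 genes in 6 comparisons, with its 95% interval. Points to the right of 0 mean higher in the group named first. CFB between TNFα plus apigenin and TNFα is the coloured point at -0.76, grey points are the C3 values given as description (2.31, -2.16 and -2.29 the farthest from 0), and the intervals of CD55 and CD59 lie close to 0.

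CLU and THBD were the genes of the wider complement pathway that passed the test. A list of 54 complement genes outside the set had 44 measured members, of which 37 had a mean under 3 over the 12 arrays. C2, C4A, C4B and VTN shared probe sets with other genes, C9 fell below the filter, and the rest of the unmeasured genes are not reported here. TNFα against control called 0 of 44 with limma (5 with an unadjusted p below 0.05), against 0.997% of all genes, and their median difference was 0.00. TNFα plus apigenin against TNFα called 1 higher and 1 lower of the 44, with a median of -0.02, against 10.1% of all genes called. Apigenin against control called 1 lower, against 11.4% of all genes, and TNFα plus apigenin against control called 1 lower, against 12.5% (both 0 without the arrays numbered 3). The combination against apigenin called 0 (1 with an unadjusted p below 0.05). The interaction also called 0, with 1 gene below 0.05 unadjusted.

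CLU encodes clusterin, a soluble inhibitor of the membrane attack complex, and was the gene called higher. It was 4.37, 4.34 and 4.32 with TNFα plus apigenin, 4.57, 4.26 and 4.87 with apigenin, 3.62, 3.52 and 3.48 with TNFα, and 3.86, 4.30 and 4.07 in control cells. All TNFα arrays lay below the arrays of the other 3 groups. For CLU, TNFα plus apigenin minus TNFα was 0.81 (SE 0.15, limma adjusted p = 0.00443), against -0.54 for TNFα minus control (limma adjusted p = 0.141).

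THBD encodes thrombomodulin, a surface anticoagulant that also speeds C3b inactivation, and was the gene called lower in all 3 comparisons. It was 5.04, 5.33 and 5.15 with TNFα plus apigenin, 5.02, 5.26 and 4.71 with apigenin, 6.01, 5.83 and 5.65 with TNFα, and 5.92, 5.59 and 5.69 in control cells. Both apigenin groups lay below both groups without apigenin. Apigenin minus control was -0.73 (SE 0.16, limma adjusted p = 0.00736), and without the arrays numbered 3 its adjusted p was 0.0715. For THBD, TNFα plus apigenin minus TNFα was -0.66 (limma adjusted p = 0.0159), a call lost without TNFα array 1 (adjusted p 0.0792) or combination array 1 (adjusted p 0.0776). Its difference from control in the combination was -0.56 (limma adjusted p = 0.0309), and that call held in 2 of 6 leave-one-out fits, lost without control arrays 1 and 3 and combination arrays 1 and 3 (adjusted p 0.055 to 0.124) and without the arrays numbered 3 (adjusted p 0.0806).

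**Figure D3:**
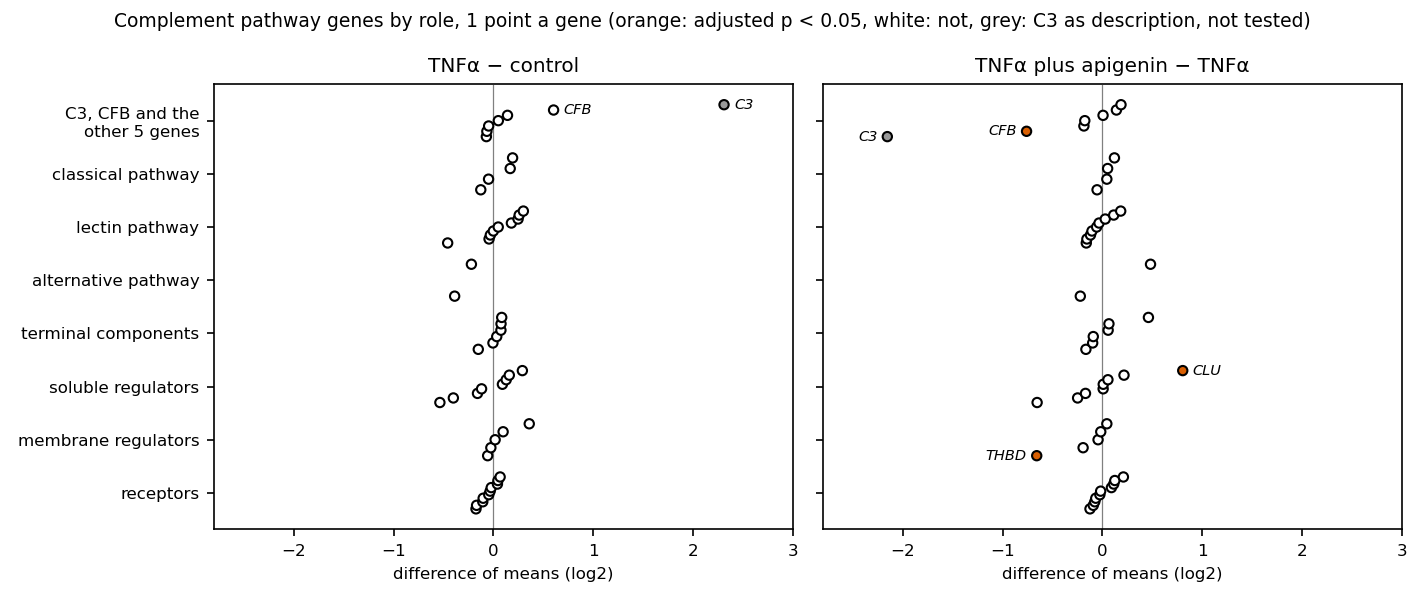
Log2 difference (x axis) of the 7 genes and of 44 further complement genes grouped by role (y axis), 1 point a gene. Most points lie near 0 in both panels, and the labelled ones are C3, CFB, CLU at 0.81 and THBD at -0.66 in the right panel, with CFB and C3 at 0.60 and 2.31 on the left.

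Acute-phase proteins, which inflammation raises in plasma as it does C3 and factor B, were read from a list of 19 with 14 measured. Of the 14, 12 had a mean under 3 over the 12 arrays. TNFα against control called 3 of the 14 higher, where 0.997% of all genes were called. This list was chosen with earlier results of these data known, so the count is a description. PTX3, a pentraxin that binds complement C1q, was 7.22, 7.29 and 7.48 with TNFα plus apigenin, 5.36, 5.29 and 5.67 with apigenin, 9.02, 9.02 and 9.04 with TNFα, and 6.75, 6.65 and 6.91 in control cells. The 4 groups of PTX3 did not overlap. TNFα minus control was 2.26 (limma adjusted p = 3.67e-07), and TNFα plus apigenin minus TNFα was -1.70 (limma adjusted p = 5.57e-06). TNFα plus apigenin minus apigenin was 1.89 for PTX3 (limma adjusted p = 1.1e-05), and apigenin minus control was -1.33 (limma adjusted p = 2.82e-05). Its combination minus control value was 0.56 (limma adjusted p = 0.0108), a call lost without combination array 3 (adjusted p 0.0537).

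SAA1, a serum amyloid protein, was 6.88, 7.02 and 6.67 with TNFα plus apigenin, 6.81, 6.72 and 6.69 with apigenin, 7.35, 7.64 and 7.33 with TNFα, and 6.69, 6.43 and 6.22 in control cells. It was higher with TNFα than in control cells by 0.99 (limma adjusted p = 0.00332, and 0.0512 without the arrays numbered 3). TNFα plus apigenin minus TNFα was -0.58 for SAA1 (limma adjusted p = 0.0207), a call lost without TNFα array 2, combination array 1 or combination array 3 (adjusted p 0.0643 to 0.0861), and without all arrays numbered 3 (adjusted p 0.0863). SERPINA1, the protease inhibitor alpha-1-antitrypsin, was 2.13, 2.30 and 2.13 with TNFα plus apigenin, 2.23, 1.88 and 2.15 with apigenin, 2.99, 2.89 and 3.04 with TNFα, and 1.85, 1.86 and 2.31 in control cells. Its TNFα arrays stood above all others. The others lay at 1.85 to 2.31, near the array medians, where a fold change understates a change in RNA. TNFα minus control was 0.97 (limma adjusted p = 0.00392) and TNFα plus apigenin minus TNFα was -0.79 (limma adjusted p = 0.00337). In the interaction, 0 of the 14 were called with limma and 2 had an unadjusted p below 0.05, SAA1 and SERPINA1 at -0.87 each (adjusted p 0.47).

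Transcription factors and receptors known to act upstream of C3 and CFB were read from a list of 21 with 19 measured. TNFα against control called 6 of the 19 higher and 0 lower, where 0.997% of all genes were called, with a median of 0.36. This list too was chosen with earlier results of these data known, so the count is a description. The count was 2 without the arrays numbered 3 and 3 when fitted on these 6 arrays alone. NFKB1, whose product p105 is processed to the p50 subunit of NF-κB, was 6.93, 6.88 and 7.14 with TNFα plus apigenin, 5.94, 6.02 and 6.14 with apigenin, 6.69, 6.70 and 6.91 with TNFα, and 5.66, 5.31 and 5.58 in control cells. TNFα minus control was 1.25 for NFKB1 (limma adjusted p = 0.000179). NFKB2, encoding the p100 and p52 forms, was higher by 1.68 (limma adjusted p = 0.00811, and 0.0544 without TNFα array 1). RELB, an NF-κB subunit, was higher by 0.98 (limma adjusted p = 0.00275, and 0.0946 without the arrays numbered 3). REL, another subunit, was higher by 0.89 (limma adjusted p = 0.0156, and 0.0901 without the arrays numbered 3). The REL call was lost without control array 1, control array 2 or TNFα array 3 (adjusted p 0.053 to 0.0752), and on the 6 compared arrays alone (adjusted p 0.135).

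For the same 4 factors the combination was set against TNFα, and none passed the test. TNFα plus apigenin minus TNFα was 0.22 for NFKB1 (interval -0.06 to 0.50, limma adjusted p = 0.375), -0.26 for NFKB2 (interval -0.85 to 0.34, limma adjusted p = 0.685), -0.18 for RELB (interval -0.48 to 0.12, limma adjusted p = 0.538) and -0.14 for REL (interval -0.49 to 0.21, limma adjusted p = 0.717). The 1 factor of the 19 called in that comparison, which called 10.1% of all genes, was CEBPD, a C/EBP family member, at -0.49 (limma adjusted p = 0.0398), and the call was lost without any TNFα array or without combination array 2 or 3 (adjusted p 0.0597 to 0.148) and without the arrays numbered 3 (adjusted p 0.187). Against control, the combination called 7 of 19 higher, where 12.5% of all genes were called, including NFKB1 at 1.47 (limma adjusted p = 1.25e-05), NFKB2 at 1.43 (limma adjusted p = 0.0037), CEBPB at 0.87 (limma adjusted p = 0.000242) and RELB at 0.80 (limma adjusted p = 0.00168). CEBPB encodes a C/EBP factor. It was 4.66, 4.78 and 4.65 with TNFα plus apigenin and 4.34, 4.24 and 4.34 with apigenin. With TNFα alone it was 4.69, 4.42 and 4.68, and in control cells 3.83, 3.92 and 3.73. Apigenin against control called 2 of 19 higher, a share near the 11.4% of all genes, NFKB1 at 0.51 (limma adjusted p = 0.0191) and CEBPB at 0.48 (limma adjusted p = 0.0139). The NFKB1 call was lost without control array 2 or apigenin array 2 or 3 (adjusted p 0.0509 to 0.0751), and the CEBPB call without control array 3 or apigenin array 1 (0.0536 to 0.0545). TNFα plus apigenin against apigenin called 2 of 19 higher, where 0.209% of all genes were called, NFKB1 at 0.95 (limma adjusted p = 0.00603, and 0.0529 without apigenin array 1) and RELB at 0.85 (limma adjusted p = 0.0255). The RELB call was lost in 5 of 6 leave-one-out fits (apigenin arrays 1 and 3 and each combination array, adjusted p 0.0638 to 0.15), and without the arrays numbered 3 these 2 comparisons called 0 factors (adjusted p 0.0917 for NFKB1 and 0.141 for CEBPB with apigenin, 0.133 for NFKB1 and 0.325 for RELB in the combination).

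**Figure D4:**
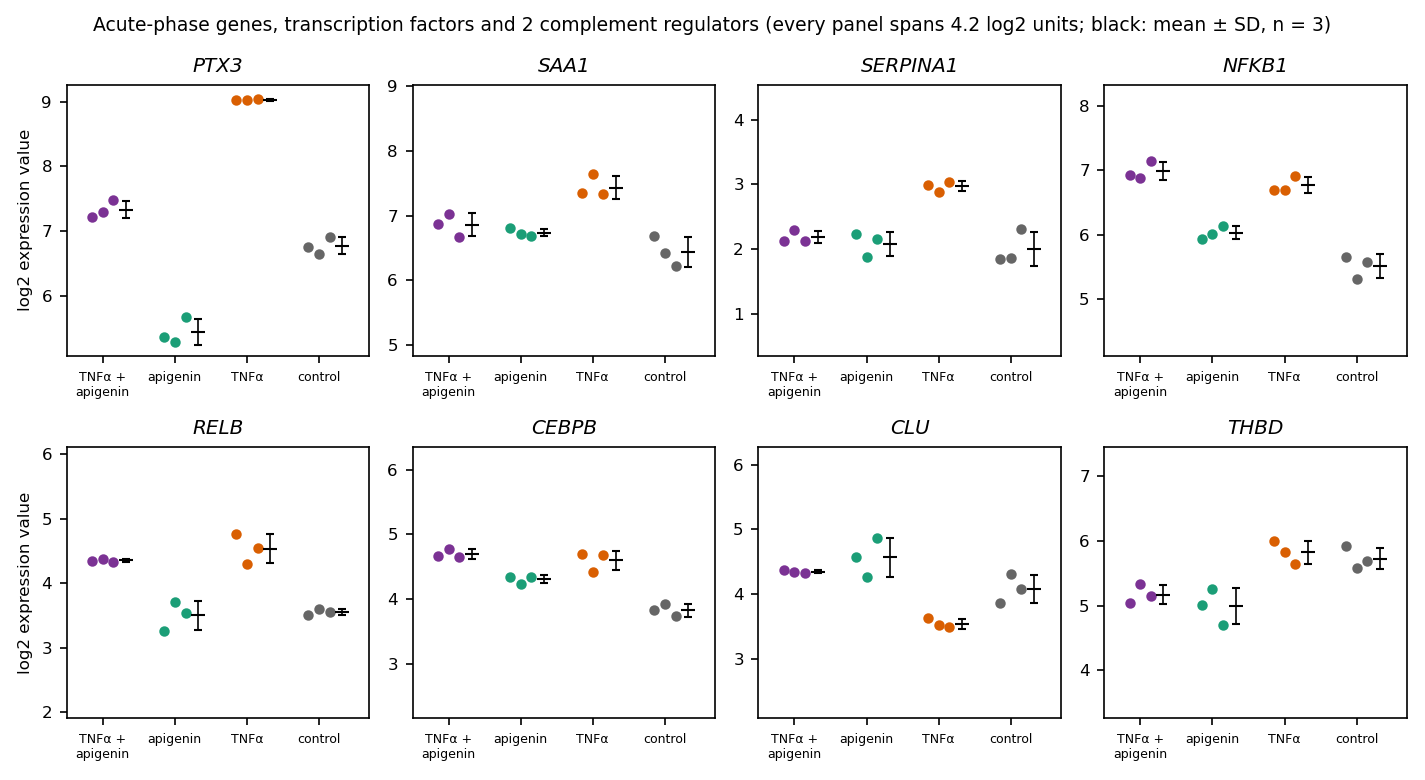
Log2 expression value (y axis) on each array, by group (x axis), of 3 acute-phase genes (PTX3, SAA1, SERPINA1), 3 transcription factor genes (NFKB1, RELB, CEBPB) and 2 complement regulators (CLU, THBD). Points are arrays and black bars the mean ± SD of 3. PTX3 separates all 4 groups, NFKB1 lies at 6.88 to 7.14 with TNFα plus apigenin and at 6.69 to 6.91 with TNFα, and CLU is lowest with TNFα.

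The genes whose levels were most like C3 over the 12 arrays, among 918 genes whose group means spanned at least 1, were IL1A (r = 0.983), MMP9 (r = 0.973), CCL2 (r = 0.961), ASS1 (r = 0.958) and CXCL11 (r = 0.952). IL1A, an inflammatory cytokine gene, was 2.37, 2.30 and 2.73 with TNFα plus apigenin, 1.79, 1.41 and 1.92 with apigenin, 6.27, 6.07 and 6.25 with TNFα, and 1.80, 1.84 and 1.98 in control cells. The genes most like CFB were MMP1 (r = 0.876), IL24 (r = 0.870) and ASS1 (r = 0.869). ASS1, the urea-cycle enzyme argininosuccinate synthase, stands in both lists and was 4.02, 3.94 and 4.10 with TNFα plus apigenin, 4.05, 4.06 and 4.24 with apigenin, 5.18, 4.76 and 5.23 with TNFα, and 4.08, 4.31 and 4.24 in control cells. These are descriptions over arrays that share 1 cell line and 1 normalisation, and every one of these genes was highest on the TNFα arrays. That pattern follows from picking them by correlation with C3 and CFB over these arrays.

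**Figure D5:**
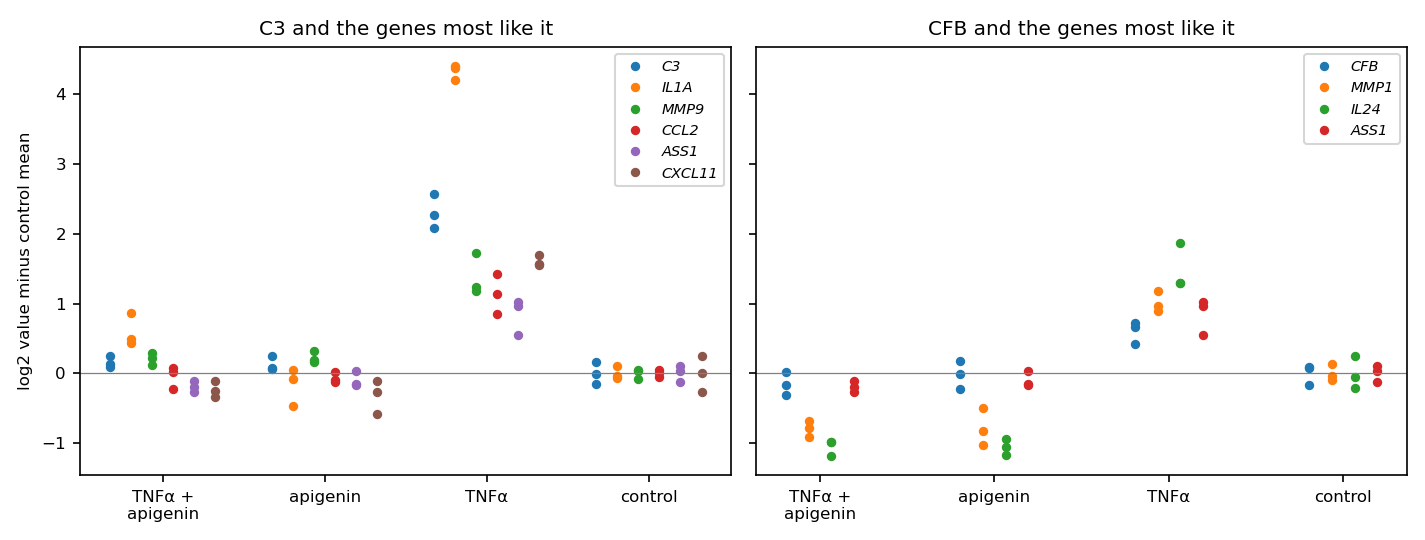
Log2 value minus the gene's control mean (y axis) on each array, by group (x axis), for C3 and the 5 genes most like it (left) and CFB and the 3 most like it (right). Points are arrays. All of them stand highest on the TNFα arrays, and MMP1 and IL24 lie below the control mean with apigenin and with TNFα plus apigenin.

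Markers of other cell types were read beside C3 and CFB, since the liver and leukocytes also make complement. The sums given here add log2 values over genes and are not an amount of RNA. Of 10 hepatocyte markers 9 were measured, all with a mean under 3. Their sum was 18.3 to 19.1 with TNFα plus apigenin, 17.5 to 18.9 with apigenin, 16.7 to 19.9 with TNFα and 17.3 to 18.8 in control cells. Of 10 leukocyte markers 7 were measured, 6 with a mean under 3, and the exception was CD68. The sum of the 7 was 21.8 to 22.9 with TNFα plus apigenin, 21.8 to 22.4 with apigenin, 21.0 to 22.2 with TNFα and 21.7 to 22.6 in control cells. Neither list had a called gene with limma in any comparison (at most 1 with an unadjusted p below 0.05 in each). Of 10 fibroblast and endothelial markers 8 were measured, and their sum was 18.2 to 18.8 with TNFα plus apigenin, 17.7 to 18.6 with apigenin, 19.6 to 20.5 with TNFα and 19.2 to 19.7 in control cells. KDR, an endothelial receptor named after its values were seen, was their 1 called gene, at -1.64 for TNFα plus apigenin minus TNFα (limma adjusted p = 0.002). It was 3.39, 3.29 and 3.85 with TNFα plus apigenin, 3.67, 2.87 and 3.83 with apigenin, 4.90, 5.02 and 5.52 with TNFα, and 3.75, 3.92 and 4.61 in control cells. No marker value is at 0 on this scale. The part of these markers in the results for C3 and CFB was not tested.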

How the data were processed

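Total RNA of 12 MDA-MB-231 samples was hybridised to Affymetrix whole-transcript arrays. The authors deposited a log2 value for each probe set on each array, for which the submitters' processing notes name Affymetrix Expression Console. Its version and summary algorithm, and any genome build, were not given in the sources used here.

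Of 53617 probe sets, 23871 had exactly 1 gene symbol, 1842 had several and 27904 were unnamed. For 22569 the symbol was brought up to date by gene identifier. Probe sets at or above the 25th percentile of their array on at least 3 arrays were kept, and the 1 with the highest mean stood for a gene, leaving 20572 genes. A model with 4 group means was fitted with limma 3.58.1 in R 4.3.3 (8 residual degrees of freedom), with Benjamini-Hochberg adjustment over all genes in each of 6 comparisons and a call at an adjusted p below 0.05. It was also run on simulated data drawn independently for each array. Such data hold no effect of replicate number, so they cannot check the fit under one. Every adjusted p printed comes from limma. C3 is described with no test. Intervals are 95% intervals of the fit. The interaction is the TNFα response with apigenin minus that without it. An exact test of 3 arrays against 3 cannot go below p = 0.1.

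The members and gene lists were chosen with earlier results of these data known. Named genes were the members, called genes of the complement list, up to 4 called genes of each other list, and the 5 and 3 genes most correlated with C3 and CFB. The labels do not say that replicates came from separate cultures, so p-values reflect only how far these arrays spread, which may be technical. Alternatives were quantile normalisation, no filter, the mean over probe sets, the compared arrays only, a replicate block, an intensity trend, leaving out each array, and leaving out the arrays numbered 3. The number of arrays limits the precision. Promoter motifs were counted with Python 3.11.15.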

Additional observations from a re-analysis of the deposited data

Results flagged for a closer look

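The TNFα response of C3 differed between cells with and without apigenin. It was 0.03 with apigenin (TNFα plus apigenin minus apigenin) and 2.31 without it (TNFα minus control), a difference of -2.29 on the log2 scale. The value drew attention because the effect of TNFα was not the same in the presence of apigenin. This difference was known when C3 was chosen, so it is a description with no test here. It ran from -2.40 to -2.15 when any 1 of the 12 arrays was left out.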

How the results depend on the processing

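Of the 6 genes other than C3, limma called 0 for TNFα against control, CFB alone for TNFα plus apigenin against TNFα, and 0 for the interaction. The other 3 comparisons called 0 of the 6. The calls of these 6 genes were the same when any 1 array was left out. C3 is not counted, since it is a description with no test. The labels do not say what a replicate number marks. Deviations from the group means correlated between arrays of the same number at 0.201 to 0.376 for number 2 and 0.302 to 0.464 for number 3. For number 1 they correlated at 0.018 to 0.102, also positive but weak. The main fit therefore did not take the numbers as pairs, a choice that does not show the arrays to be unpaired. As a hint from the data, 11 of 12 arrays correlated best with their own number, and arrays 2, 1 and 3 came in that order on the second principal component in all 4 groups. With a replicate block, TNFα against control called CFB of the 6 (limma adjusted p 0.0431), and 632 genes in place of 205. The block moved no other count of the 6. Quantile normalisation called CD55 of the 6 between TNFα plus apigenin and control, at -0.38. The cause was not tested for either. No filter, the mean over probe sets, an intensity trend, the compared arrays alone (not run for the interaction, which needs all 4 groups) and leaving out the arrays numbered 3 gave the main counts of the 6. CFB between TNFα and control was 0.53 to 0.70 with adjusted p 0.079 to 0.293 when 1 array was left out.

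Over all alternatives, 1075 values of single genes were computed, of which 59 lost a call, 2 gained one and 0 called values reversed. The other 1014 were counted as unchanged, and these include values that were never called. They also include the C3 values known when the genes were chosen. Those counted as unchanged if they shifted by less than the largest SD of the groups compared. Counts over all genes moved more: TNFα against control called 73 genes on the compared arrays alone, 98 to 314 without 1 array, 85 without the arrays numbered 3 and 304 after quantile normalisation. TNFα plus apigenin against apigenin called 15 to 100 genes in place of 43, and the interaction 2 to 14 in place of 11. Apigenin against control called 1505 to 3501 genes in place of 2342, and TNFα plus apigenin against TNFα 1191 to 3315 in place of 2085. The complement list of 44 had 4 calls with the block in each of these last comparisons, in place of 1 and 2, and 3 between TNFα plus apigenin and control, in place of 1, with the block or quantile normalisation. It had 2 between apigenin and control after quantile normalisation. The upstream factors had 3 calls in place of 1 (TNFα plus apigenin against TNFα) and 11 in place of 7 (against control) with the block, and the acute-phase genes 2 in place of 1 against control. Dim genes near the array median have folds that understate a change.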
